A study of Mus musculus with 6 samples.

Results

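The genes described here encode the inhibitors of cyclin-dependent kinases (CDKs) other than p21: Cdkn1b (p27Kip1), Cdkn1c (p57Kip2), Cdkn2a (p16Ink4a and p19Arf), Cdkn2b (p15Ink4b), Cdkn2c (p18Ink4c) and Cdkn2d (p19Ink4d). They were chosen by name, and all 6 were found among the 27694 genes with a symbol, with 18 of the 125793 isoforms of the deposited table. RNA came from mouse neural stem cell cultures of the C57/Bl6 strain, of which 3 carry the label WT (wild type) and 3 the label KO (knockout of vimentin). The cultures were untreated and grew in serum-free medium with FGF-2 and EGF, growth factors that keep such cells dividing. Sequencing was paired-end and strand-specific, on RNA depleted of its ribosomal part. The labels do not say how the knockout allele was made, nor if each culture had an animal of its own, so p-values reflect only the scatter of these samples, part of which may be technical.

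Values are FPKM (read fragments for each kilobase of an isoform, scaled by library size), summed over the isoforms of a gene. Depth was equal to 28.4 to 36.2 M reads of 150 bases per library. Vim, the gene the knockout targets, had 191, 179 and 186 FPKM in the WT-labelled libraries and 650, 732 and 624 FPKM in the KO-labelled ones. The RNA of the targeted gene was thus higher in the KO-labelled libraries, not lower. Neither the allele nor the assignment of the labels was tested, and every direction below is that of the labels. WT 2 stood apart, with 15.97% of its FPKM in isoforms outside the exons of genes, against 3.75% to 5.27% in the other 5 libraries. Of 7 neural stem cell markers, 7 were above the expression minimum, which is set on the mean of the 6 libraries. Sox2 was listed at 0 in WT 2 and in the 3 KO-labelled libraries, and at 53.3 and 28.4 FPKM in WT 1 and WT 3. Sox1 was listed at 0 in WT 1, KO 2 and KO 3, and at 0.215 FPKM in KO 1. It had 18.3 FPKM or more in WT 2 and WT 3. Sox1 and Sox2 thus reached the minimum only through WT-labelled libraries. A listed 0 covers only the isoforms that entered the gene sum, and if it reflects absent RNA was not tested. The summed level of 5 microglial markers was 0.940 to 3.36 FPKM in the WT-labelled libraries and 0.760 to 1.00 FPKM in the KO-labelled ones. That of 2 endothelial markers and that of 4 fibroblast and pericyte markers stayed at or below 0.568 FPKM in every library.

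CDK inhibitors restrain the kinases that drive cells from G1 into S phase. The INK4 proteins (p15, p16, p18 and p19Ink4d) bind CDK4 and CDK6 and keep D-type cyclins from activating them, which leaves the retinoblastoma protein able to hold back E2F transcription factors. The CIP/KIP proteins (p21, p27 and p57) bind cyclin-CDK complexes, above all those of CDK2. In the nervous system p27 and p57 are known for bringing progenitors out of the cell cycle, and p16 and p19Arf for limiting the renewal of neural stem cells when the Polycomb protein BMI1 is lost.

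The INK4 proteins are built of ankyrin repeats and come from related genes. Cdkn2a and Cdkn2b lie 11636 bases apart on the minus strand of chromosome 4. Their coding sequences were aligned to show how alike they are (GENCODE M21 transcripts, GRCm38), because reads from near-identical copies can be assigned to the wrong gene. Over 347 aligned coding bases, Cdkn2a and Cdkn2b were 75.8% identical, and the longest identical run was 23 bases, well short of a read of 150 bases. Within the aligned stretches of the other pairs of INK4 genes, which were 32 to 320 coding bases long, the longest identical run was 16 bases. Runs outside the aligned stretches and in untranslated parts were not searched for. Of the CDK inhibitor genes, only Cdkn1c overlapped another annotated gene in GENCODE M21, the antisense RNA gene Gm44732.

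Cdkn2a makes 2 proteins from 2 first exons, and the isoforms of the table keep them apart. Transcript ENSMUST00000107131 starts 12461 bases upstream of ENSMUST00000060501 and encodes p19Arf, which stabilises p53 by binding MDM2. ENSMUST00000060501 encodes p16Ink4a, the CDK4 and CDK6 inhibitor. The end of each first exon is shown in lower case and the start of the shared second exon (chr4:89276645-89276985, minus strand) in capitals. The first exons do not overlap, so reads in them or over this junction tell the transcripts apart.
ENSMUST00000060501 (p16Ink4a): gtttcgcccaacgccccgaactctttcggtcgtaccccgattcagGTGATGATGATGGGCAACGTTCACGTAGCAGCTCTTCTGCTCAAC
ENSMUST00000107131 (p19Arf): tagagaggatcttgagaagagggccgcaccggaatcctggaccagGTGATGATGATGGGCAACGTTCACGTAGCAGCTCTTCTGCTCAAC
The coding part of the first exon is 126 bases long in the p16Ink4a transcript, a whole number of codons. It is 190 bases long in the p19Arf transcript, which leaves a remainder of 1, so the same second exon is read in another frame.

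Nearly all Cdkn2a RNA was assigned to the p19Arf transcript. This isoform had 16.8, 20.8 and 21.1 FPKM in the WT-labelled libraries and 26.4, 20.7 and 21.6 FPKM in the KO-labelled ones. The p16Ink4a isoform was listed at 0, 0.178 and 0.196 FPKM in the WT-labelled libraries and at 0, 0.398 and 0.0262 FPKM in the KO-labelled ones. In every library p16Ink4a made up at most 1.88% of the gene's FPKM and rested on at most 10.4 estimated reads, against 436 to 683 for p19Arf. For an isoform of this length, 3 reads would be worth 0.0973 to 0.124 FPKM, so a listed 0 allows a level of about that size. The split between isoforms that share exons is an estimate of the authors' assembler.

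Cdkn2a as a whole did not pass the test (19.7 ± 2.48 FPKM labelled WT, 23.0 ± 2.95 FPKM labelled KO, SD, n = 3 each), and the groups overlapped. Its log2 fold change, KO minus WT on the log2(FPKM + 1) scale, was 0.22 (SE 0.14, 95% interval -0.13 to 0.56, adjusted p = 0.399, limma with Benjamini-Hochberg adjustment over 12080 genes).

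The start regions of the 2 transcripts differ in base composition. They are shown because the isoform values separate them, with each match to GGGCGG (a GC box, the usual core of SP1 sites) or to the E2F-type strings TTTCCCGC, TTTGGCGC, TTTCGCGC and TTTGCCGC, on either strand, in capitals. The sequences are RefSeq promoter windows of GRCm38.p6, from 250 bases before to 50 bases after the start.
Cdkn2a, p19Arf start, chr4:89294570-89294869, minus strand: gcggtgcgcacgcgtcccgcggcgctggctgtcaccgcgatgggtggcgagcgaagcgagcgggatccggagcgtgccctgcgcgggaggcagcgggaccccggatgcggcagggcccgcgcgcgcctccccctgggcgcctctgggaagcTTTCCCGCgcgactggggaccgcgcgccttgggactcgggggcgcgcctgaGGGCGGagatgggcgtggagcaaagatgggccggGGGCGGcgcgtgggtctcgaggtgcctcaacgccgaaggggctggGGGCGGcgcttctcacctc
Cdkn2a, p16Ink4a start, chr4:89282143-89282442, minus strand: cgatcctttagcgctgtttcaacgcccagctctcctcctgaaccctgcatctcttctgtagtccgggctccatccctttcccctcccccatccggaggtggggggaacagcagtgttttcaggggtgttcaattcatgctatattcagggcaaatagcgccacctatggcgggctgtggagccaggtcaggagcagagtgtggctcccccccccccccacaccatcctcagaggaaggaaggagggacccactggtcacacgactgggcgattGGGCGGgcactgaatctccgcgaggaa
The window at the p19Arf start holds 45 CpG dinucleotides and is 77% G or C, with 3 GC boxes and 1 E2F-type string. That at the p16Ink4a start holds 12 CpG dinucleotides and is 60.3% G or C, with 1 GC box and no E2F-type string. Over all 32851 promoter windows the median was 7 CpG dinucleotides, 35.7% held a GC box and 2.26% an E2F-type string. A match is a description of the letters only.

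Cdkn2b, whose product p15Ink4b is known as a target of TGF-beta signalling in epithelial cells, had the lowest RNA level of the 6 genes in both groups. It had 1.76, 0.711 and 0.448 FPKM in the WT-labelled libraries and 1.15, 1.99 and 2.58 FPKM in the KO-labelled ones. The groups overlapped, since WT 1 lay above KO 1. The gene rested on 22.6 to 117 estimated reads per library and was not called (log2 fold change 0.58, SE 0.33, 95% interval -0.22 to 1.38, adjusted p = 0.333, limma). For a gene this low the size depended on the scale, with log2 fold changes of 0.21 at a pseudocount of 5, 1.03 at a pseudocount of 0.1, 0.94 after rescaling each library to the same total and 1.25 from estimated reads, and none was called.

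Cdkn2c was the only CDK inhibitor gene that passed the test, 1 of 6, with 6.9% of the 12080 genes tested called in either direction and 3.25% called lower. Its product p18Ink4c inhibits CDK4 and CDK6 and is known from mouse knockouts as a brake on progenitor division. Cdkn2c RNA fell from 12.3, 17.2 and 13.6 FPKM in the WT-labelled libraries to 5.63, 5.94 and 5.94 FPKM in the KO-labelled ones. All KO values lay below all WT values, and the KO values were close together. The means were 14.4 ± 2.53 and 5.84 ± 0.179 FPKM (SD, n = 3 each), so that WT was 2.46-fold above KO. On the log2 scale the change was -1.16 (SE 0.14, 95% interval -1.51 to -0.81, adjusted p = 0.0106, limma). An exact two-sided permutation test of Cdkn2c alone gave p = 0.1, and no smaller p can come from 3 libraries against 3. The call was lost without KO 1 (adjusted p = 0.0533, limma) and without KO 2 (adjusted p = 0.0501, limma). It was also lost with the replicate number as a block in the model (adjusted p = 0.0926, limma). It held without KO 3 (adjusted p = 0.0498) and without WT 2 (log2 fold change -1.03, adjusted p = 0.0171, limma).

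The Cdkn2c sum holds 2 reference isoforms and an assembled one, and all 3 were lower in every library labelled KO than in any labelled WT. None of the 3 was called by itself. The adjusted p was 0.276 for ENSMUST00000063531, 0.425 for ENSMUST00000097921 and 0.611 for the assembled isoform (limma). ENSMUST00000063531 had 4.45, 2.29 and 3.83 FPKM in the WT-labelled libraries and 1.10, 0.995 and 0.819 FPKM in the KO-labelled ones. ENSMUST00000097921, which starts 1817 bases further upstream, had 2.25, 10.7 and 4.94 FPKM and then 1.60, 1.27 and 1.29 FPKM. Both reference isoforms carry the same 504 coding bases in GENCODE M21.

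The assembled isoform MSTRG.34692.1 is 9088 bases long and runs 998 bases beyond the annotated start and 2228 bases beyond the annotated end. It has 2 exons and spans bases 109658648 to 109668187 of chromosome 4. At its length, its only intron is too short to be the one between the 2 coding exons of the reference isoforms. The assembled isoform thus keeps at least most of that intron, and its FPKM cannot be read as that of spliced p18Ink4c message. It had 5.64, 4.20 and 4.84 FPKM in the WT-labelled libraries and 2.94, 3.68 and 3.83 FPKM in the KO-labelled ones. At that length it held 56.8% to 89.5% of the gene's estimated reads. The size of the Cdkn2c difference varied between ways of summing the gene: the log2 fold change was -1.60 with reference transcripts only (adjusted p = 0.0473) and -0.77 with estimated reads (adjusted p = 0.0187, limma voom, which also differs in scaling and in the genes tested).

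The 2 RefSeq start windows of Cdkn2c are shown because this is the gene that was called. The downstream start is that of ENSMUST00000063531, and the upstream one lies 433 bases from the start of ENSMUST00000097921, so no isoform of the table begins in the upstream window. The windows are printed with GC boxes and E2F-type strings again in capitals (RefSeq, GRCm38.p6).
Cdkn2c, upstream start, chr4:109666707-109667006, minus strand: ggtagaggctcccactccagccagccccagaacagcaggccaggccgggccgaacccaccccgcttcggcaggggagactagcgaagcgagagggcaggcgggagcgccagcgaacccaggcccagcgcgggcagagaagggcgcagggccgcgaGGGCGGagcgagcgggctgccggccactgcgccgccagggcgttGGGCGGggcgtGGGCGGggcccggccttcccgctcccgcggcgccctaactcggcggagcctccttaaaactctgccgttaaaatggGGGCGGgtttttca
Cdkn2c, downstream start, chr4:109665323-109665622, minus strand: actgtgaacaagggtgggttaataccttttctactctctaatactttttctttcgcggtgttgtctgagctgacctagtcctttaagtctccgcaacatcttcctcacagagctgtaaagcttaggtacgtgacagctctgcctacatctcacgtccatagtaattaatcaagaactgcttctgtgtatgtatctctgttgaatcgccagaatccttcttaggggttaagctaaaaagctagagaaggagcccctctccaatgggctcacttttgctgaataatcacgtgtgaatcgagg
The upstream window holds 33 CpG dinucleotides and 4 GC boxes, and the downstream window holds 8 CpG dinucleotides and no GC box. Neither holds an E2F-type string as spelled above.

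Cdkn2d encodes p19Ink4d, an INK4 protein that mouse work links to keeping neurons out of the cell cycle. Its RNA was at 11.8, 11.9 and 14.2 FPKM in the WT-labelled libraries and at 20.2, 16.6 and 18.2 FPKM in the KO-labelled ones. Every KO value lay above every WT value, but the gene was not called (12.6 ± 1.34 and 18.3 ± 1.84 FPKM, SD, n = 3 each, log2 fold change 0.51, SE 0.12, 95% interval 0.21 to 0.80, adjusted p = 0.0674, limma). The interval is that of a single gene and takes no account of the number of genes tested. A 2-exon isoform, ENSMUST00000215619, held 91.2% to 100% of its estimated reads.

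**Figure D1:**
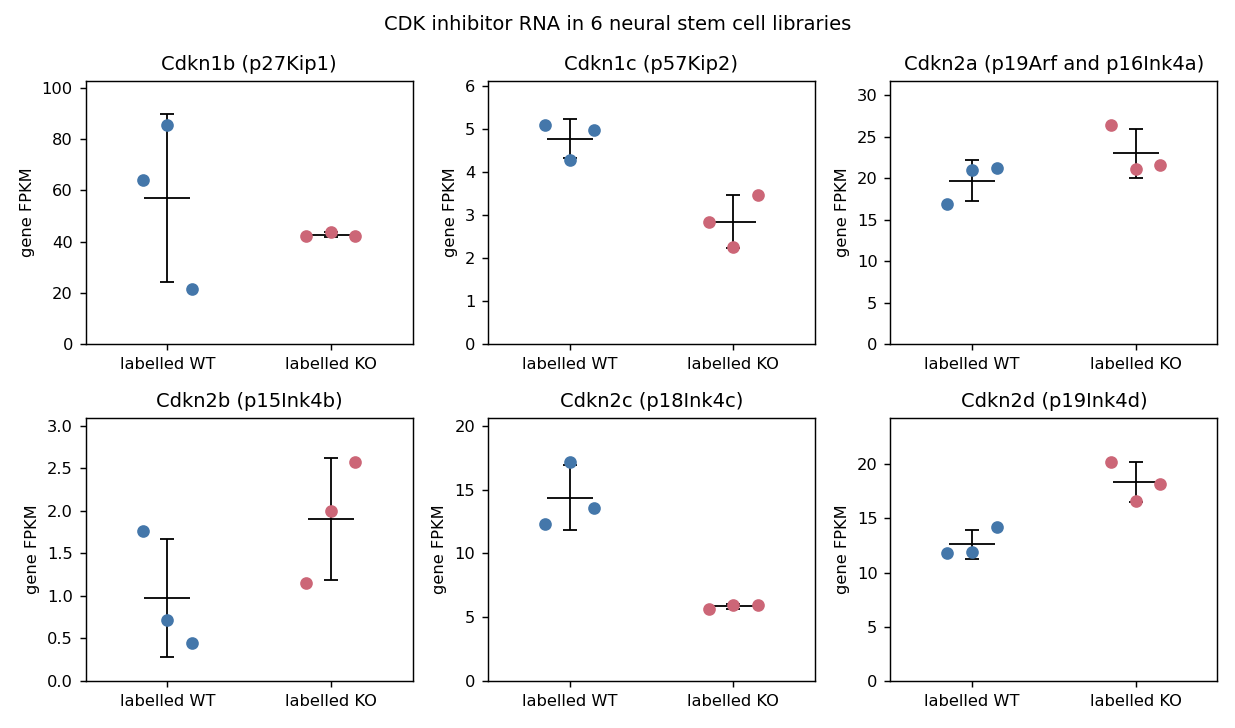
Gene FPKM of the 6 CDK inhibitor genes, with 1 point per library, blue for libraries labelled WT and red for those labelled KO, black lines for the mean and bars for the SD (n = 3 each), and each vertical axis starting at 0. Cdkn2c at 5.63 to 5.94 FPKM in the KO-labelled libraries lies below all WT values, Cdkn2d lies above them, and the WT values of Cdkn1b spread from 21.4 to 85.5 FPKM.

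The order of Cdkn2c and Cdkn2d differed between the groups. The ratio of Cdkn2d to Cdkn2c was 0.957, 0.690 and 1.04 in the WT-labelled libraries and 3.59, 2.79 and 3.06 in the KO-labelled ones. The summed FPKM of the 4 INK4 products, with the p19Arf isoform left out, was 25.9, 30.0 and 28.4 in the WT-labelled libraries and 27.02, 24.9 and 26.7 in the KO-labelled ones, and these ranges overlapped. The sum was equal to 15.0% to 18.1% of the summed FPKM of Cdk4 and Cdk6 in the WT-labelled libraries and to 15.9% to 18.1% in the KO-labelled ones. The Cdkn2c part of these sums and ratios includes the assembled isoform that keeps the intron between the coding exons. These sums and ratios were chosen after the values were seen and are given without a test.

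Among the CIP/KIP genes, Cdkn1b had the highest RNA level of the 6 genes in both groups, and its WT-labelled libraries had the largest SD in FPKM of the 6 genes. Its product p27Kip1 inhibits CDK2 complexes and is controlled largely through protein turnover. Cdkn1b had 63.9, 85.5 and 21.4 FPKM in the WT-labelled libraries and 42.3, 43.7 and 42.0 FPKM in the KO-labelled ones. The KO values lay between WT 3 and the other WT libraries, so the groups overlapped. The test did not pass (56.9 ± 32.6 and 42.7 ± 0.942 FPKM, SD, n = 3 each, log2 fold change -0.20, SE 0.49, 95% interval -1.41 to 1.01, adjusted p = 0.846, limma). The log2 fold change was -0.78 without WT 3 (adjusted p = 0.0625), 0.19 without WT 2 (adjusted p = 0.831) and -0.01 without WT 1 (adjusted p = 0.991, limma). Cdkn1b lies on chromosome 6, where the median log2 fold change of 604 tested genes was 0.27, against -0.02 over all genes tested.

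The 3 Cdkn1b isoforms share the same 591 coding bases and differ in their untranslated parts. The 3-exon isoform ENSMUST00000003115 had 27.2, 50.8 and 1.80 FPKM in the WT-labelled libraries and 23.0, 24.0 and 20.4 FPKM in the KO-labelled ones. The 2-exon isoform ENSMUST00000067327 had 36.7, 34.6 and 15.2 FPKM and then 16.8, 19.4 and 17.3 FPKM. WT 3 was the lowest of the 6 libraries in both. The 4-exon isoform ENSMUST00000204807 went the other way, with its highest value in WT 3. It had 0, 0 and 4.48 FPKM in the WT-labelled libraries and 2.49, 0.359 and 4.24 FPKM in the KO-labelled ones.

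Cdkn1c encodes p57Kip2, an imprinted gene known for its high level in quiescent neural stem cells. It had 5.11, 4.28 and 4.98 FPKM in the WT-labelled libraries and 2.83, 2.26 and 3.48 FPKM in the KO-labelled ones. The groups did not overlap, but the gene was not called (4.79 ± 0.444 and 2.86 ± 0.612 FPKM, SD, n = 3 each, log2 fold change -0.60, SE 0.17, 95% interval -1.01 to -0.18, adjusted p = 0.097, limma). Without assembled isoforms its log2 fold change was 0.10 (adjusted p = 0.925, limma). The direction in FPKM thus depended on counting the assembled isoform MSTRG.46406.3. That isoform had 0.794, 1.98 and 4.01 FPKM in the WT-labelled libraries and 0.909, 0 and 0 FPKM in the KO-labelled ones. The reference isoform ENSMUST00000037287 had 1.23, 0 and 0 FPKM and then 0.759, 1.30 and 1.69 FPKM. From estimated reads of all isoforms in the sum, the log2 fold change was -0.66 (adjusted p = 0.202, limma voom). The split between isoforms that share exons is an estimate here too. Reads shared with the overlapping antisense gene Gm44732 cannot be told apart unless strand was used in counting, a step the labels do not describe, so the Cdkn1c values are uncertain.

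**Figure D2:**
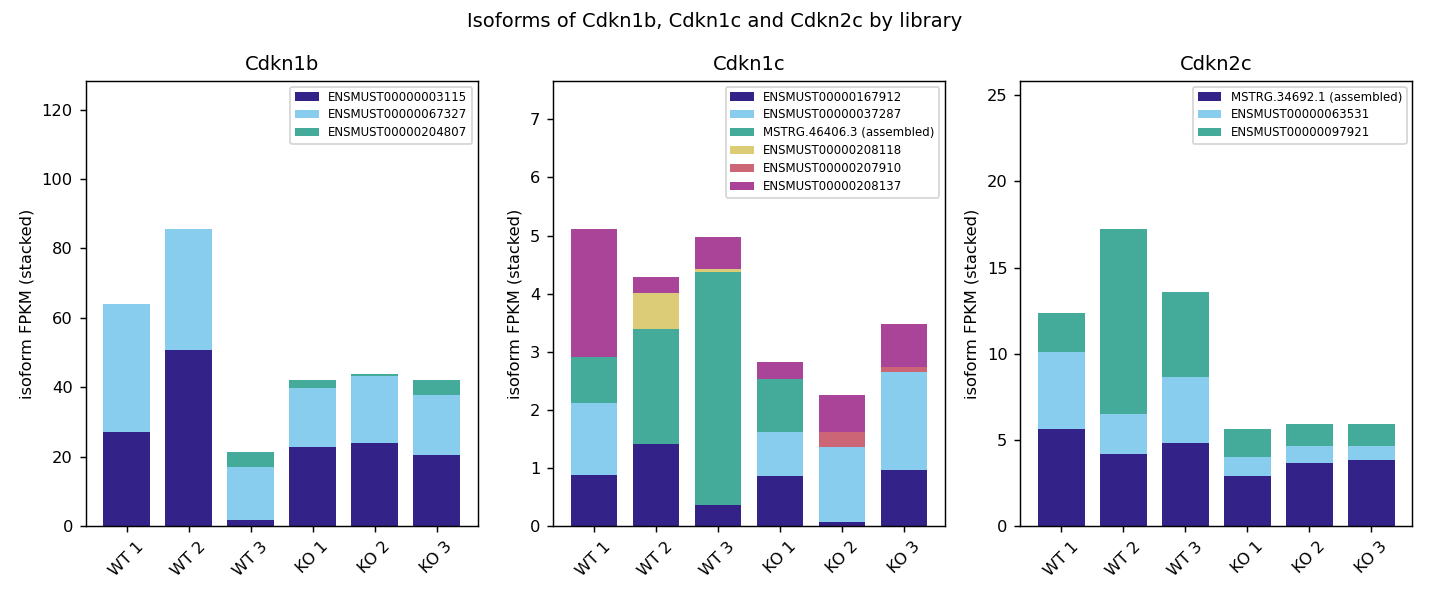
Stacked FPKM of the kept isoforms of Cdkn1b, Cdkn1c and Cdkn2c in each library, with 1 colour per isoform. The assembled isoform of Cdkn1c reaches 4.01 FPKM in WT 3 and is at 0 in KO 2 and KO 3, and ENSMUST00000003115 of Cdkn1b is at 1.80 FPKM in WT 3.

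Across the family, 3 of 6 genes had KO and WT values that did not overlap (Cdkn1c, Cdkn2c and Cdkn2d), as did 33.3% of all genes tested. The mean log2 level was higher in the KO-labelled libraries for 3 genes and lower for 3. None of the 10 member isoforms tested was called in either direction, with 0.139% of 27399 isoforms called (0.0657% higher and 0.073% lower), and 4 had an unadjusted p under 0.05 in limma, as had 2807 of all isoforms tested. Values of 4 of the 10 did not overlap between groups (3 of Cdkn2c and 1 of Cdkn2d), as for 18.7% of all isoforms tested. By level, the order in the WT-labelled libraries was Cdkn1b, Cdkn2a, Cdkn2c, Cdkn2d, Cdkn1c and Cdkn2b. There, Cdkn2a and Cdkn2c overlapped, as did Cdkn2c and Cdkn2d. In the libraries labelled KO the order was Cdkn1b, Cdkn2a, Cdkn2d, Cdkn2c, Cdkn1c and Cdkn2b, and only Cdkn1c and Cdkn2b overlapped as neighbours.

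**Figure D3:**
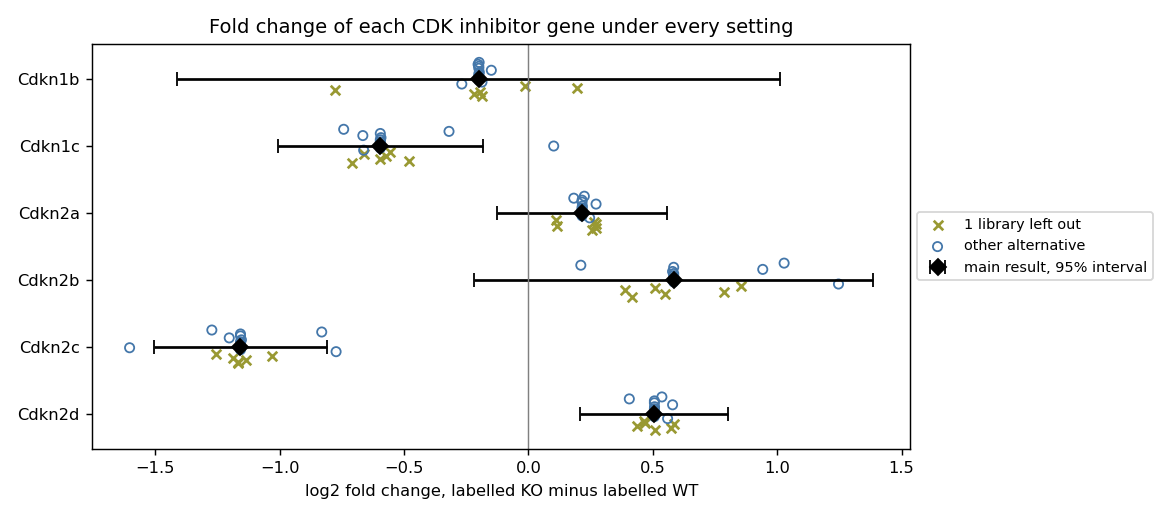
Log2 fold change (labelled KO minus labelled WT) of each gene, with the main result as a black diamond and its 95% interval, fits without 1 library as crosses and other alternatives as open circles. All Cdkn2c values lie below 0 and all Cdkn2d values above it, while Cdkn1b crosses 0 without WT 2 and Cdkn1c with reference transcripts only.

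The kinases and cyclins that INK4 proteins act on differed in their calls. Among the 5, 2 rose, 0 fell, 3 were not called, with a median log2 fold change of 0.05 against -0.02 over all genes tested. Ccnd2 (cyclin D2) rose from 67.1, 64.0 and 70.1 FPKM to 230, 226 and 230 FPKM (log2 fold change 1.76, SE 0.07, adjusted p = 9.38e-04, limma). Ccnd1 (cyclin D1) rose from 73.2, 80.9 and 75.4 FPKM to 156, 143 and 133 FPKM (log2 fold change 0.90, SE 0.09, adjusted p = 0.00719, limma). Cdk4, the main partner of the D-type cyclins by level, was at 164 ± 4.01 and 151 ± 3.72 FPKM and was not called (adjusted p = 0.356). Ccnd2 also lies on chromosome 6.

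Among the partners of CIP/KIP proteins, CDK1, CDK2 and cyclins E, A and B, 0 of 7 genes were called in limma. Their median log2 fold change was 0.51. Ccne2 (cyclin E2) was at 2.27 ± 0.539 and 4.53 ± 0.880 FPKM (adjusted p = 0.0752), and Cdk2 at 13.7 ± 2.88 and 20.6 ± 1.29 FPKM (adjusted p = 0.0948). Of 13 pocket protein and E2F genes, 3 rose, 1 fell and 9 did not pass, with a median of 0.26. E2f1, an activating E2F, rose from 1.94 ± 0.148 to 4.45 ± 0.509 FPKM, and E2f8, a repressing one, from 4.42 ± 0.299 to 7.88 ± 0.738 FPKM. Rbl1 (p107) rose from 10.2 ± 0.387 to 14.3 ± 0.700 FPKM, and Rbl2 (p130), the pocket protein of resting cells, fell from 26.8 ± 5.04 to 14.2 ± 0.970 FPKM (SD, n = 3 each, adjusted p = 0.0229 to 0.043 for these 4 genes, limma).

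**Figure D4:**
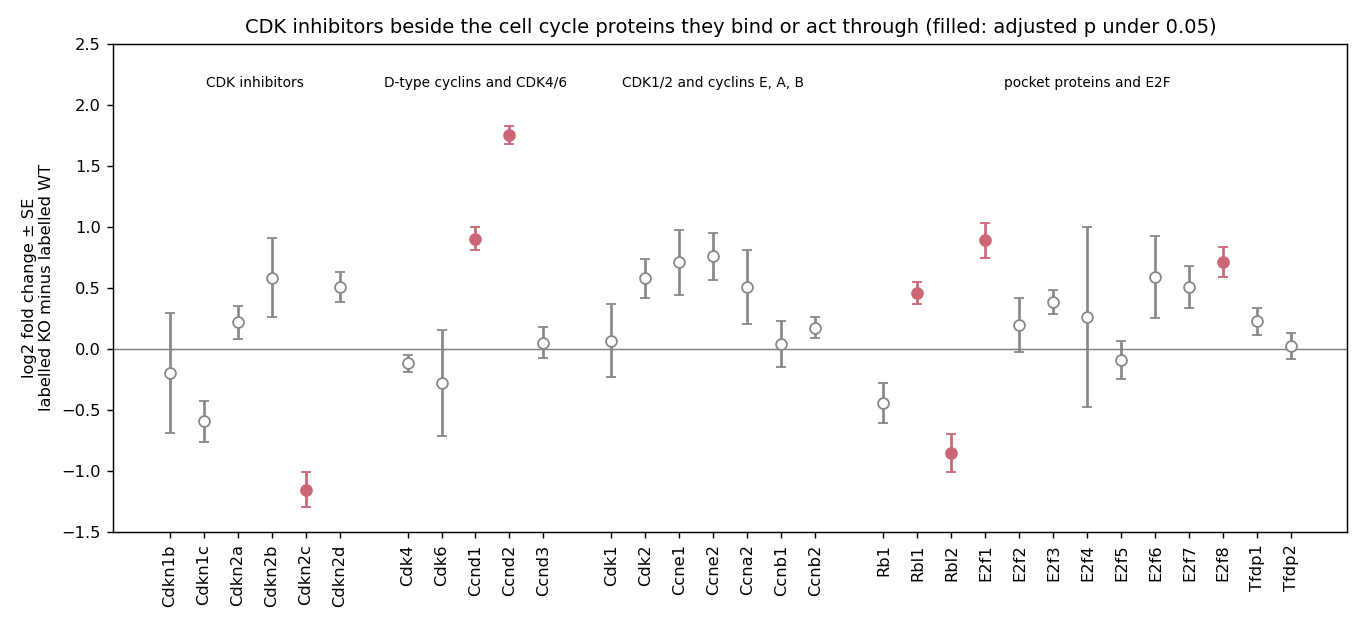
Log2 fold change (labelled KO minus labelled WT) with its SE for the CDK inhibitors and for 3 groups of cell cycle genes, filled where the adjusted p is under 0.05. Cdkn2c and Rbl2 are the called genes below 0, and Ccnd1, Ccnd2, Rbl1, E2f1 and E2f8 those above it.

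Genes that control the inhibitors mostly did not pass. In the list of p27 turnover and control, 1 of 15 genes rose and none fell (median log2 fold change 0.01): Cul1, the scaffold of the SCF ubiquitin ligase, went from 29.9 ± 0.503 to 45.3 ± 0.401 FPKM (adjusted p = 0.00931, limma). Among 16 repressors of the Ink4/Arf locus, 1 rose and none fell (median -0.17): the Polycomb methyltransferase gene Ezh2 went from 22.6 ± 1.30 to 33.6 ± 2.75 FPKM (adjusted p = 0.030, limma). Cul1 and Ezh2 both lie on chromosome 6. The other called genes Ccnd1, Rbl1, Rbl2, E2f1, E2f8 and Trp53 (below) lie on other chromosomes. The part of chromosomal position in these differences was not tested. In the Arf pathway 1 of 6 genes rose and none fell (median -0.0039): Trp53, which encodes p53, went from 21.6 ± 0.826 to 35.7 ± 3.65 FPKM (adjusted p = 0.0177, limma). Of the TGF-beta inputs to Cdkn2b, 0 of 9 tested genes were called in limma. Tgfbr2 was at 4.25 ± 0.191 and 2.77 ± 0.444 FPKM (SD, n = 3 each, adjusted p = 0.107, limma). Tgfbr1 was at 9.92 ± 3.45 and 5.91 ± 0.312 FPKM (adjusted p = 0.219).

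Markers of proliferation and of cell types are given beside the CDK inhibitors. The 4 proliferation markers Mki67, Top2a, Ccnb1 and Pcna summed to 215 to 253 FPKM in the WT-labelled libraries and to 276 to 284 FPKM in the KO-labelled ones. Of these, 0 of 4 were called in limma. Of the 4 astrocyte markers, Gfap and Aqp4 fell (adjusted p = 0.0020 and 0.00239, limma) and S100b and Aldoc did not pass. The summed level of these 4 was 94.6 to 578 FPKM in the WT-labelled libraries and 319 to 385 FPKM in the KO-labelled ones, and the groups overlapped. Aldoc set most of this range, at 6.40 FPKM in WT 1 and 324 and 488 FPKM in WT 2 and WT 3. For 5 neuronal markers the sum was 4.02 to 20.8 FPKM and 13.0 to 16.5 FPKM, which also overlapped. The part of cell composition and of cell cycle state in the Cdkn2c difference was not tested, and in bulk RNA fewer cells of a type and less RNA per cell cannot be told apart.

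The genes whose pattern over the 6 libraries was most like that of each CDK inhibitor were found by Pearson's correlation of log2(FPKM + 1) among 10782 tested genes with a symbol. With 6 points and so many genes, values near 1 are common, and the correlations are descriptions. For Cdkn2c they were Fads2, a fatty acid desaturase (r = 0.999), and Nhsl1 (r = 0.999), and for Cdkn2d the ubiquitin ligase Lnx2 (r = 0.995) and Rfc2, a subunit of the clamp loader of DNA replication (r = 0.991). Cdkn1b was most like the kinase gene Oxsr1 (r = 0.997) and Nudt12 (r = 0.994), and Oxsr1 shared its low value in WT 3, with 12.7, 15.3 and 5.87 FPKM in the WT-labelled libraries and 10.1, 9.81 and 9.57 FPKM in the KO-labelled ones. Cdkn1c was most like Asap3 and Asphd2 (r = 0.992 and 0.991), Cdkn2a like the DNA end-binding gene Xrcc6 and the cohesin acetyltransferase gene Esco2 (r = 0.992 and 0.989), and Cdkn2b like Tmem120b and Gpbp1 (r = 0.981 and 0.979).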

How the data were processed

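The authors deposited 1 isoform table with FPKM and mean coverage (a signal per base, not scaled to depth) for 6 libraries, per the file headers. Per the submitters' processing notes, the tools were StringTie, TopHat2, Bowtie2, FastQC and cutadapt, with no versions. The 3 sample columns named NT were taken as WT, since KO has its own columns, with replicates by number. No source used here gives the build; 95.9% of the Ensembl isoforms also in GENCODE M21 (GRCm38) had identical coordinates there.

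FPKM was summed per gene symbol over 95506 isoforms: reference transcripts and assembled isoforms overlapping exons of a named gene. Genes with a mean of at least 1 FPKM were tested with limma 3.58.1 (R 4.3.3) on log2(FPKM + 1) with a mean-variance trend. The added 1 understates changes of low genes. Genes were called at a Benjamini-Hochberg adjusted p under 0.05. Isoforms were tested likewise. Reads were estimated as coverage times length over 150, and the level that 3 reads would give covers counting error only; the 95% intervals are limma's and come from the scatter of the libraries. The procedure was tested on simulated data. Sequences and tables were handled with Python 3.11.15, pandas 2.3.3 and Biopython 1.88.

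The members and lists were chosen with earlier results of these data known. The text names every member and, per list, at most 4 called genes by p, or 2 where no gene was called; Cdk4 and the markers were named after their values were seen. Alternatives covered pseudocount, filter, scaling, variance model, isoform sets, estimated reads, threshold and libraries left out. A marker list and the letters of the aligned coding sequences are not reported here.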

Additional observations from a re-analysis of the deposited data

Results flagged for a closer look

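An isoform outside the gene sums carried signal. MSTRG.42373.1, a single-exon assembled isoform of 1889 bases with no strand that lies beyond the end of Cdkn1b without overlapping it (chr6:134925677-134927565, while the gene ends at 134925513), had 0.515, 0.772 and 0.426 FPKM in the WT-labelled libraries and 0.957, 0.922 and 0.864 FPKM in the KO-labelled ones. Its mean in the KO-labelled libraries was 0.914 FPKM (SD 0.0473, n = 3), above the 0.571 FPKM (SD 0.180, n = 3) of the WT-labelled libraries, while the Cdkn1b gene sum was not called. No test was made of it.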

How the results depend on the processing

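Of 106 alternative values for the fold changes of the 6 genes, 101 kept direction and side of the threshold, 2 reversed and 3 lost the call. Cdkn1b reversed without WT 2 (0.19) and Cdkn1c with reference transcripts only (0.10). The log2 fold change ranged over the fits without 1 library from -0.78 to 0.19 for Cdkn1b, -0.71 to -0.48 for Cdkn1c, 0.11 to 0.27 for Cdkn2a, 0.39 to 0.85 for Cdkn2b, -1.25 to -1.03 for Cdkn2c and 0.44 to 0.59 for Cdkn2d. Cdkn2c remained called under 15 of 18 alternatives. Between 0 and 1 genes of the 6 were called in the fits without 1 library, 0 at a threshold of 0.01 and 3 at 0.1 (Cdkn1c, Cdkn2c and Cdkn2d). Cdkn1c and Cdkn2b were not tested with a minimum mean of 5 FPKM. The cause of these shifts was not tested.

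Between libraries with the same replicate number, deviations from the group means correlated at 0.0119, -0.0031 and 0.0650. Not every library correlated best with its own number. With so few libraries these values cannot exclude that those of the same number were prepared together. With the replicate number as a block, Cdkn2c kept its log2 fold change of -1.16 but was not called (adjusted p = 0.0926, limma), 0 of the 6 genes were called, and calls over all genes went from 833 to 15. The number of member isoforms called was 0 under all 13 alternatives for isoforms. Over all genes, calls were 235 with reference transcripts only, 542 with every class code, 219 and 1600 at thresholds of 0.01 and 0.1, and 281 to 768 without 1 library. Depth limits Cdkn2b and the p16Ink4a isoform most, which rest on few reads.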

Other observations

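Genes next to the CDK inhibitors were listed for comparison, and 0 of 5 tested were called in limma. Gpr19, a receptor gene beside Cdkn1b on chromosome 6, was at 10.1 ± 3.53 FPKM in the WT-labelled libraries and 18.8 ± 2.67 FPKM in the KO-labelled ones (adjusted p = 0.118, limma), and Slc44a2, on chromosome 9 with Cdkn2d, was at 35.8 ± 1.81 and 28.6 ± 3.87 FPKM (adjusted p = 0.171, limma). Faf1, on chromosome 4 with Cdkn2c, had 15.6, 14.8 and 12.5 FPKM in the WT-labelled libraries and 15.6, 12.5 and 14.3 FPKM in the KO-labelled ones, while Cdkn2c fell. Mtap, a methionine salvage gene in the region of Cdkn2a, had 10.3, 8.62 and 11.1 FPKM and then 5.19, 14.3 and 12.9 FPKM. In the imprinted domain of Cdkn1c, the noncoding RNA Kcnq1ot1, known to silence genes of this domain on the paternal copy, had 0.715, 0.664 and 0.782 FPKM in the WT-labelled libraries and 0.741, 1.06 and 0.982 FPKM in the KO-labelled ones, below the minimum for testing. The maternally expressed genes Phlda2 and Slc22a18 stayed at or below 0.173 FPKM in every library.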
